A study of Mus musculus with 20 samples.

Results

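Genes of mitochondrial protein folding and breakdown were examined for peaks of ATF4, the bZIP transcription factor of the integrated stress response. The 8 genes, among 21631 protein-coding genes of the autosomes and chromosome X, were taken by name as textbook mitochondrial proteases (Lonp1, Clpp, Clpx and Yme1l1) and chaperones (Hspd1, Hspe1, Hspa9 and Dnaja3). The peaks came from CUT&Tag, in which an antibody directs a transposase to DNA beside the protein of interest, done on C2C12 cells, 1 line of mouse myoblasts of wild-type genotype. Cells received thapsigargin, which blocks calcium uptake into the endoplasmic reticulum (ER) and provokes ER stress, at 100 nM for 6 h, or the solvent DMSO for 6 h. Each treatment had 2 ATF4 samples and 1 deposited peak list, with 8619 peaks in thapsigargin and 803 in DMSO, and 8 further groups of the series were not used here. A list holds peak positions only, so there was no replicate error, the read depth is unknown, and a site absent from the shorter list was not shown to be unbound. Such lists measure no transcripts, so the myoblast label was not checked against muscle markers.

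ATF4 peaks in thapsigargin lay at the ends of 5 of the 8 genes, namely Lonp1, Hspd1, Hspe1, Hspa9 and Dnaja3, counting peaks centred within 1 kb of a gene end. Across all protein-coding genes this share was 15.1%. In DMSO 2 of the 8, Lonp1 and Hspa9, had such a peak, against 1.29% of all protein-coding genes. The same 2 genes carried one in both lists, as did 1.27% of all genes. Of the 4 chaperone genes all had a thapsigargin peak at an end, resting on 3 peaks since Hspd1 and Hspe1 share one, and of the 4 protease genes Lonp1 had one. The difference between chaperones and proteases was not tested, and among further genes of each kind the shares were 37.5% of chaperones (3 of 8) and 38.5% of proteases (5 of 13).

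Mitochondria make few of their own proteins, and most are imported unfolded through the outer and inner membranes. Inside, Hsp70-type and Hsp60-type chaperones fold them, and ATP-dependent proteases remove those that fail to fold. When this balance is disturbed, cells raise the transcription of such chaperones and proteases, a programme called the mitochondrial unfolded protein response, and in mammals ATF4, ATF5 and CHOP are the factors most often named in it.

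**Figure D1:**
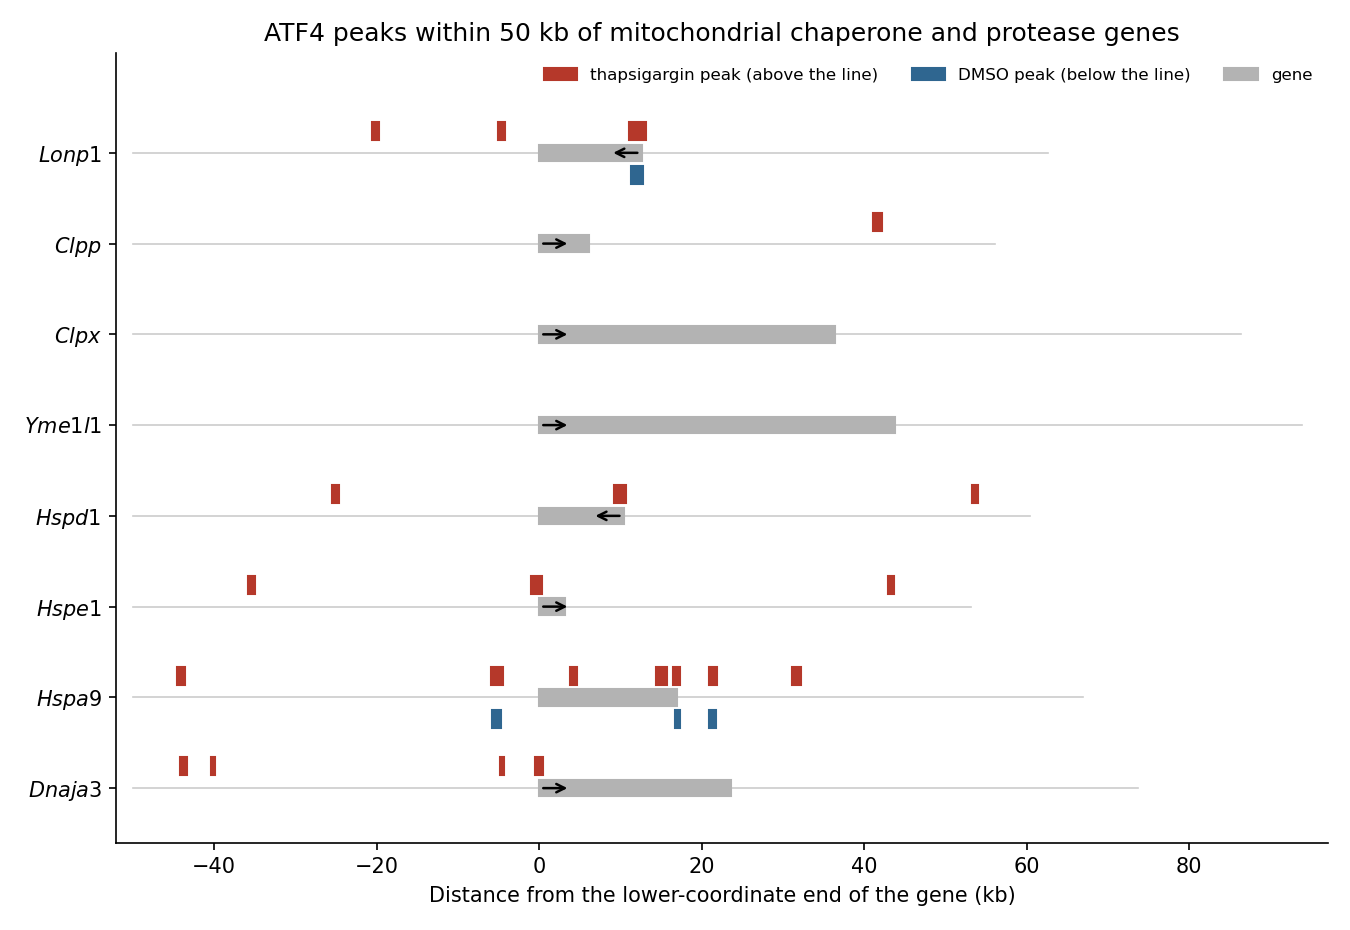
ATF4 peaks (thapsigargin above each line, DMSO below) within 50 kb of the 8 genes, drawn to scale in kb from the lower-coordinate end of each gene; arrows show the direction of transcription where the promoter table gave it. Hspa9 has 7 thapsigargin and 3 DMSO peaks, while Clpx and Yme1l1 have none.

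RefSeq promoter windows (build GRCm38.p6, from 250 bases before to 50 bases after an annotated start) were at hand for 7 of the 8 genes. Below are the windows of Lonp1 (chr17:56626854-56627153, minus strand), the outer start of Hspd1 (chr1:55088194-55088493, minus strand), Hspe1 (chr1:55087898-55088197, plus strand) and Dnaja3 (chr16:4683820-4684119, plus strand). They are shown because a thapsigargin peak covers each in full. It also covers the window of the inner Hspd1 start in full, which is not shown as it overlaps that of Hspe1. The window of Yme1l1 (chr2:23156255-23156554, plus strand) is shown beside them as one that no peak touches. Each runs 5′ to 3′ along the gene's own strand. Capitals mark TGACG or its reverse complement CGTCA, the half-site of ATF and CREB factors, and in Hspe1 also a pair of facing heat shock units, GAANNTTC.

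Lonp1: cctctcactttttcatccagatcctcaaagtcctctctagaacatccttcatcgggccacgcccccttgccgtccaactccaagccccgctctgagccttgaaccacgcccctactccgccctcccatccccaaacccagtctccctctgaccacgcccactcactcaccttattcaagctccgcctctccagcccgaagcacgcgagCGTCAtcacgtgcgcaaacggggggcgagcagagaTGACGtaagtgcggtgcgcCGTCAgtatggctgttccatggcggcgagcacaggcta
Hspd1: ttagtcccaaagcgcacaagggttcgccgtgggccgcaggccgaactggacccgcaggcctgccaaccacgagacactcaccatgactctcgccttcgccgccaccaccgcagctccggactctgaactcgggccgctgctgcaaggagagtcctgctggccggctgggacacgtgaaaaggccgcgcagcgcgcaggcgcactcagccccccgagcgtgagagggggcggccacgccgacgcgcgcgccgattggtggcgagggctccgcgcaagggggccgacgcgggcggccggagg
Hspe1: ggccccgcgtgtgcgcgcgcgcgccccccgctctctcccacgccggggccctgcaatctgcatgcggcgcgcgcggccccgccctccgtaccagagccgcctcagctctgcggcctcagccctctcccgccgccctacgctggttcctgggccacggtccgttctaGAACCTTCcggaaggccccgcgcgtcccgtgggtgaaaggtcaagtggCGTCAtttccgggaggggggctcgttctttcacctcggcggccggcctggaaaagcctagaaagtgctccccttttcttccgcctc
Dnaja3: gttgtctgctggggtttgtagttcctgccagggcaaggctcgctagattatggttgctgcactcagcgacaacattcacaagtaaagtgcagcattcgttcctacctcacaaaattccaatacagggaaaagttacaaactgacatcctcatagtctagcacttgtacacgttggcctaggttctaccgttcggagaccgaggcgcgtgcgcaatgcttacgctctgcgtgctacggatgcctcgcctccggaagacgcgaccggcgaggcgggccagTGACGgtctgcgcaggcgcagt
Yme1l1: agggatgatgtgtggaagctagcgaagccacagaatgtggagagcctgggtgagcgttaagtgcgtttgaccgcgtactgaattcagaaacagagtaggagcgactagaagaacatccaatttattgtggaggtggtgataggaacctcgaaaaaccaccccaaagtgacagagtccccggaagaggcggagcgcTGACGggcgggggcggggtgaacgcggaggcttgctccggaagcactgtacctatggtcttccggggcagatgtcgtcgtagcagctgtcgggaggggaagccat

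The Lonp1 window holds the half-site 3 times, with matches beginning 42 and 7 bases before and 12 bases after the start. Hspe1 holds it once, 36 bases before its start, with the facing heat shock units 84 bases before the start. These units are preceded by ttcta and followed by cggaa, so a TTC and a GAA adjoin them at the same spacing. The motif searched covers the facing pair alone. The window of the outer Hspd1 start, though inside the same peak, holds no match to any motif searched. In Dnaja3 the single match begins 28 bases after the start. Yme1l1, without a peak, also holds it once, 55 bases before the start, and the windows of Clpp and Clpx hold none. Over the 8 windows of the 7 members, 5 held the half-site, and the window of the inner Hspd1 start shares its match with that of Hspe1. Of 21045 promoter windows of protein-coding genes, counted without chromosome 18, 23.8% held it. Of the 2223 lying wholly inside a thapsigargin peak 45.3% did, and of the 131 wholly inside a DMSO peak 56.5% did.

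The composite element TGATGNAA (reverse complement TTNCATCA), at which ATF4 binds together with a C/EBP factor, was in none of the members' windows. It was in 3.45% of all promoter windows, in 4.63% of those wholly inside a thapsigargin peak and in 32.8% of the 131 wholly inside a DMSO peak. The cyclic AMP response element TGACGTCA (2.26% of all windows) and the C/EBP site TTGCNNAA (10.3% of all windows) had no match in a member's window either. Their shares were 5.26% and 7.56% of windows wholly inside a thapsigargin peak, and 1.53% and 7.63% inside a DMSO peak. The facing heat shock units, found in 7.27% of all windows, occurred in those of Hspd1 and Hspe1, which overlap and share the same 8 bases. Of windows wholly inside a thapsigargin peak 5.49% held these units, and of those inside a DMSO peak 7.63%. Both strands were searched, TGACG lies within TGACGTCA, and a window covers only a part of each peak.

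Lonp1 encodes the AAA+ protease of the matrix that degrades damaged and unassembled proteins. Its thapsigargin peak spanned chr17:56625361-56627413 and was 2053 bp wide, wider than most, at the 97.7th percentile of width in its list. It reached from 510 bp upstream of the annotated start to 1542 bp into the gene and was centred 516 bp inside. In DMSO the peak spanned chr17:56625609-56627073, 1465 bp wide and at the 94.1st percentile of its own list, and was centred 562 bp inside. The DMSO peak lay wholly within the thapsigargin peak, with centres 46 bp apart and a thapsigargin to DMSO width ratio of 1.40. Width is not a measure of occupancy and also varies with read depth, which is unknown.

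Lonp1 and Catsperd, which encodes a subunit of the sperm calcium channel, are transcribed away from each other, and their nearest annotated starts are 144 bp apart. One peak in each list covered both starts, so it cannot be assigned to either gene by position. Of 825 such head-to-head pairs of protein-coding genes with starts within 1 kb, 35.6% had a thapsigargin peak over both starts and 1.58%, or 13 pairs, a DMSO peak. The remaining thapsigargin peaks near Lonp1 were 897 bp and 832 bp wide and lay 4.61 kb and 20.1 kb from the gene. The nearer one was centred 81 bp from an end of Micos13, a subunit of the MICOS complex that shapes mitochondrial cristae.

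The other proteases showed no peak at their ends in either list. Clpp encodes the proteolytic chamber of the matrix ClpXP protease and Clpx its AAA+ unfoldase. The nearest thapsigargin peak to Clpp (chr17:56990264-56996371) was 35.5 kb away at chr17:57031330-57032465, centred 390.5 bp from an end of Khsrp, and its nearest DMSO peak was 364 kb away. For Clpx (chr9:65294251-65330658) the nearest peaks were 78.9 kb away in thapsigargin and 1500 kb away in DMSO. Yme1l1 (chr2:23155442-23199260), the AAA+ protease of the inner membrane that faces the intermembrane space, had its nearest peaks 86.8 kb away in thapsigargin and 2210 kb away in DMSO. Yme1l1 too is one of a head-to-head pair, with Mastl and starts 481 bp apart, and neither list had a peak there. Within 50 kb, 6 of the 8 genes had at least 1 thapsigargin peak, against 51.1% of all genes, and 2 of the 8 a DMSO peak, against 8.01% of all genes.

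Hspd1 encodes the Hsp60 chaperonin, a barrel in which matrix proteins fold, and Hspe1 its lid, the co-chaperonin Hsp10. Their products act together, and the genes form a head-to-head pair. The annotated start of Hspe1 (chr1:55088148-55091317) lies 95 bp inside Hspd1 (chr1:55077833-55088243), counted from its outer start, so the 2 genes overlap there. Hspd1 has 2 annotated starts, and the inner one, at 55087932, lies on the other side of the Hspe1 start. A single thapsigargin peak at chr1:55087097-55088518, 1422 bp wide and at the 81.7th percentile of width, covered the starts of both genes. It was centred 435.5 bp inside Hspd1 and 340.5 bp upstream of Hspe1, so it leaned towards the Hspd1 side, running 1146 bp into Hspd1 and 370 bp into Hspe1. The 2 genes thus count as 2 members but rest on 1 peak. No DMSO peak was near: the closest was 948 kb from Hspd1 and 959 kb from Hspe1. The pair's promoter was therefore in the thapsigargin list alone, unlike that of Lonp1.

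**Figure D2:**
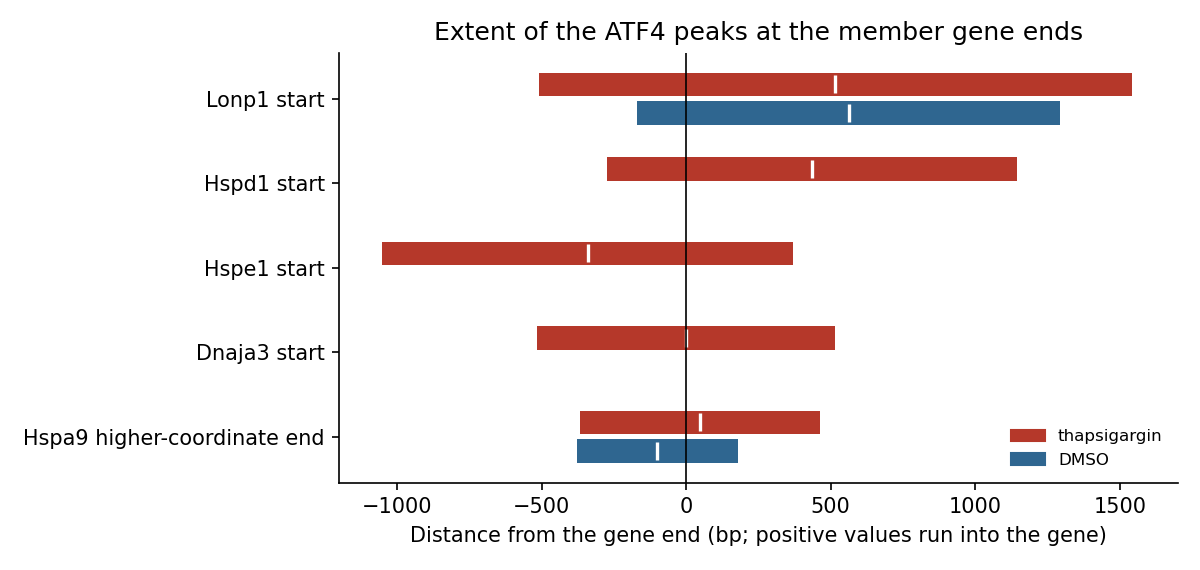
Extent of each ATF4 peak at a member's gene end, in bp from that end with positive values running into the gene; white ticks are peak centres. The bars of Hspd1 and Hspe1 are the same thapsigargin peak seen from each start, and DMSO peaks exist at Lonp1 and Hspa9 only.

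Dnaja3 encodes Tid1, the J-domain co-chaperone that stimulates mitochondrial Hsp70. The thapsigargin peak at Dnaja3 (gene at chr16:4684070-4707695) spanned chr16:4683554-4684586 and was centred exactly on the annotated start, reaching 516 bp to each side. At 1033 bp its width was near the middle of the list, at the 49.6th percentile. A second, narrow peak of 461 bp lay 4.52 kb upstream, centred 173 bp from an end of Coro7, and 2 more, of 880 bp and 441 bp, lay 43.7 kb and 40.1 kb upstream near Vasn. The nearest DMSO peak to Dnaja3 was 3960 kb away. With annotated starts in place of gene ends, a thapsigargin peak covered the start of 4 of the 7 members in the promoter table, against 14.3% of the 17274 protein-coding genes there, and a DMSO peak covered 1 of the 7, that of Lonp1, against 1.05%.

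Hspa9 encodes mortalin, the Hsp70 of the matrix, which pulls incoming proteins through the inner membrane and folds them. It lies on chromosome 18 from 34937414 to 34954351, and its strand was not read from the tables used here, so its ends are named by coordinate. The thapsigargin list held 7 peaks within 50 kb of it and the DMSO list 3, whereas no other member had more than 4 and 1. Among all protein-coding genes the median was 1 thapsigargin peak, 0.139% (30 genes) had 7 or more, and 0.037% (8 genes) had 3 or more DMSO peaks. Long genes have more room for peaks, and among the 4696 genes within 1.5 times the length of Hspa9 the share with 7 or more was 0.0426%, that is Hspa9 and Kif2c. Neighbouring genes share peaks, so these genes are not independent of each other. The run at Hspa9 was known beforehand and the limits of 7 and 3 are its own counts, so these shares only describe it. The comparison by length was added after values were seen, and an effect of gene length was not tested.

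**Figure D3:**
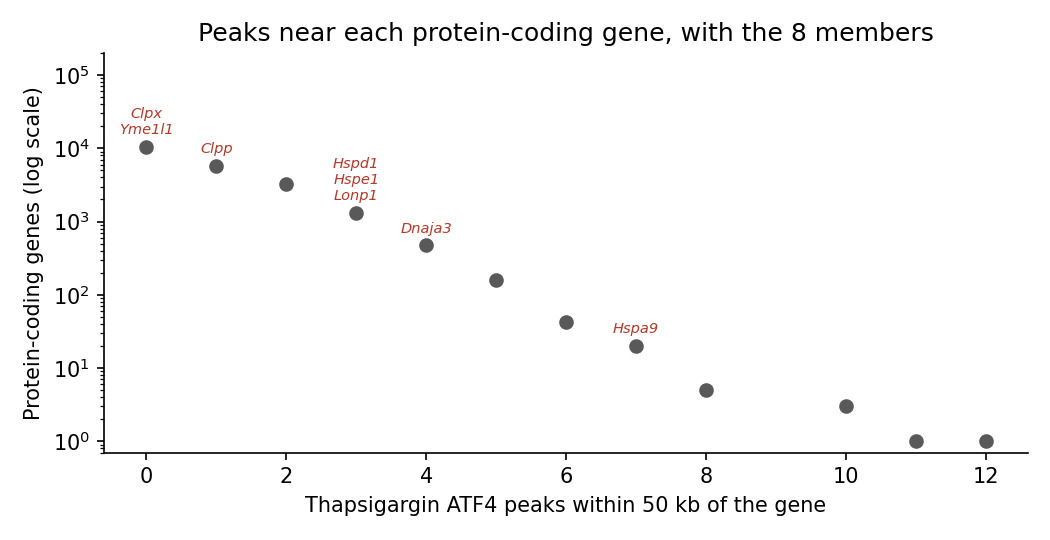
Number of protein-coding genes (log scale) by how many thapsigargin ATF4 peaks lie within 50 kb of the gene, with the 8 members named above their value. Hspa9 stands at 7 peaks, Dnaja3 at 4, Lonp1, Hspd1 and Hspe1 at 3, Clpp at 1, and Clpx and Yme1l1 at 0.

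At the higher-coordinate end of Hspa9 the thapsigargin peak spanned 34953889 to 34954717, with 829 bp, and the DMSO peak 34954173 to 34954730, with 558 bp. Both covered the gene end. The thapsigargin peak was centred 48 bp inside the gene and the DMSO peak 100.5 bp outside it, so the centres were 148.5 bp apart. They overlapped by 545 bp, and the DMSO peak reached 13 bp further out than the thapsigargin peak. The extra width in thapsigargin lay on the gene side, with 463 bp inside the gene against 179 bp in DMSO. Both were narrow for their lists, at the 27.5th percentile in thapsigargin and the 15.3rd in DMSO, in contrast to those at Lonp1.

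From low to high coordinates, the run in thapsigargin opened with a peak of 972 bp lying 44.0 kb from the gene, followed after 38.9 kb by one of 1574 bp, the widest, at 5.19 kb from the gene. This widest peak was centred 220.5 bp from an end of Etf1, the translation termination factor, and a DMSO peak of 1048 bp lay inside it. Inside Hspa9 there were peaks of 876 bp and 1279 bp, neither with a DMSO counterpart. The first of these was centred 310.5 bp from an end of a small nucleolar RNA gene, Gm22200, and the second 1854 bp from the higher-coordinate end of Hspa9, leaving 752 bp to the peak at that end. Beyond the gene followed peaks of 1053 bp at 4.46 kb, with a DMSO peak of 815 bp inside it, and of 1057 bp at 14.7 kb. The last of these was centred 595 bp from an end of a pseudogene, Gm6724.

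Of these 7 peaks, 5 were nearest to an end of Hspa9 among protein-coding genes and 2 to an end of Etf1. The run extended over 76.7 kb in thapsigargin, of which 9.96% lay in peaks, and over 27.5 kb in DMSO, of which 8.80% did. All 3 DMSO peaks had a thapsigargin peak over them, and 4 thapsigargin peaks, the 2 inside Hspa9 and the outermost on either side, had no DMSO peak. Thapsigargin to DMSO width ratios were 1.5 at Etf1, 1.49 at the end of Hspa9 and 1.29 at the site beyond it.

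**Figure D4:**
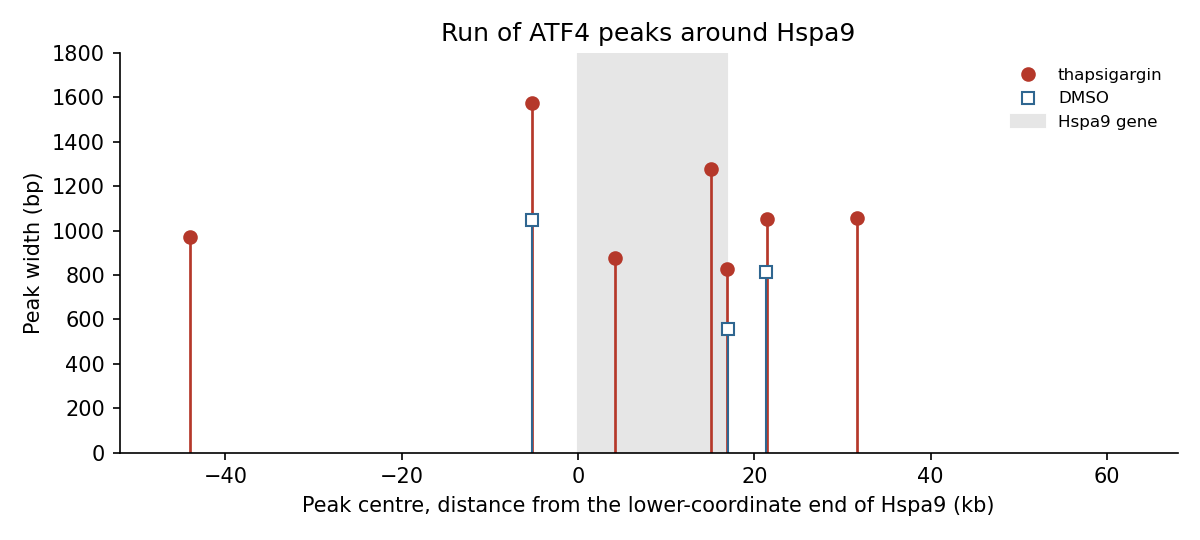
Width in bp of each ATF4 peak around Hspa9 (circles thapsigargin, squares DMSO) against its centre in kb from the lower-coordinate end; the shaded band is the gene. The 3 DMSO peaks, of 1048, 558 and 815 bp, each stand under a wider thapsigargin peak.

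Around all 8 genes there were 18 distinct thapsigargin peaks and 4 DMSO peaks. Every one of the 4 DMSO peaks overlapped a thapsigargin peak, as 99.5% of all DMSO peaks did, and 3 lay wholly inside one. In the other direction 4 of the 18 thapsigargin peaks (22.2%) overlapped a DMSO peak, against 9.25% of the whole list. Of these 4, 3 lay in the Hspa9 run and the other at the starts of Lonp1 and Catsperd, so the share rests on 2 places. The 18 thapsigargin peaks, those nearest to neighbouring genes included, were 441 to 2053 bp wide. Their median was 934.5 bp, against 1037 bp for the whole list. The 4 at the members' own ends were 2053, 1422, 1033 and 829 bp wide. The median thapsigargin to DMSO width ratio over the 4 overlapping pairs was 1.44, against 1.56 over all overlapping pairs. By distance, the end peak farthest from its gene end was that of Lonp1, at 516 bp for thapsigargin and 562 bp for DMSO. The nearest peak not counted was at Hspa9, at 1854 bp for thapsigargin and 4419 bp for DMSO. In thapsigargin the 50 kb limit passed between peaks 44.0 kb and 68.2 kb from Hspa9. In DMSO it passed between a peak 5.23 kb from Hspa9 and one 364 kb from Clpp.

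Many peaks within 50 kb belonged by position to neighbours rather than to the members: 10 of the 18 thapsigargin peaks were nearest to an end of another protein-coding gene, and 7 of them were centred within 1 kb of that end. Beside those named above, one 25.1 kb from Hspd1 was centred 2 bp from an end of Coq10b, which encodes a coenzyme Q-binding protein of mitochondria, and one 43.2 kb from Hspd1 was 231.5 bp from an end of Mob4. Genes most like Lonp1 in the widths of their end peaks in both lists were Catsperd, by the same peak, and Uqcrq and Gdf9, which share one end peak, 2027 bp wide with thapsigargin and 1362 bp wide with DMSO, a summed difference of 129 bp from Lonp1. For Hspa9 they were Bbs5 (828 bp with thapsigargin, 561 bp with DMSO), Capn10 and Fancl, with summed differences of 4, 78 and 95 bp. With only 2 conditions this likeness is a description of width.

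Further genes of mitochondrial protein handling were taken from lists of 46 textbook genes outside the 8. In thapsigargin 19 of the 46 (41.3%) had a peak at a gene end, against 15.1% of all genes. In DMSO none did, against 1.29% of all genes, a share so low that none among 46 does not set these genes apart. These lists, like the members, were chosen with earlier results of these data known, and neither difference was tested. The shares of all genes include genes of any expression, which peak lists do not measure. Of the other chaperones and co-chaperones 3 of 8 (37.5%) had a thapsigargin peak, namely Clpb (1167 bp), a disaggregase of the intermembrane space, Hscb (939 bp), a co-chaperone of iron-sulphur cluster assembly, and Trap1 (499 bp), the mitochondrial Hsp90. Neither Grpel1 nor Grpel2, which encode nucleotide exchange factors for mortalin, had one.

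Of the other proteases and processing peptidases 5 of 13 (38.5%) had a thapsigargin peak. These were Htra2 (1877 bp), a serine protease of the intermembrane space, Xpnpep3 (1399 bp), Parl (1309 bp), the rhomboid protease of the inner membrane, and Afg3l1 (1208 bp) and Spg7 (973 bp), subunits of the matrix-facing AAA protease. Of the TOM and TIM import machinery, the longest list, 9 of 18 genes (50%) had one. The widest peaks there were at Chchd4 (1846 bp), the receptor of the oxidative import route, Timm21 (1305 bp), Timm8a1 (1292 bp), Tomm40 (1253 bp), the channel of the outer membrane, Timm17b (1099 bp) and Timm22 (964 bp). None of the 3 prohibitin complex genes Phb, Phb2 and Stoml2 had an end peak.

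Of 4 regulators of the mitochondrial stress response 2 (50%) had a thapsigargin peak, Hsf1 (1396 bp), the heat shock factor, and Dele1 (857 bp), which relays mitochondrial stress to the kinase HRI. Eif2ak1, which encodes HRI, had its nearest thapsigargin peak 6929.5 bp from a gene end, and Atf5 its nearest at 32982 bp, with a DMSO peak at 2229 bp. By these distances no thapsigargin peak overlapped that DMSO peak, whereas 799 of all 803 DMSO peaks overlapped one.

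**Figure D5:**
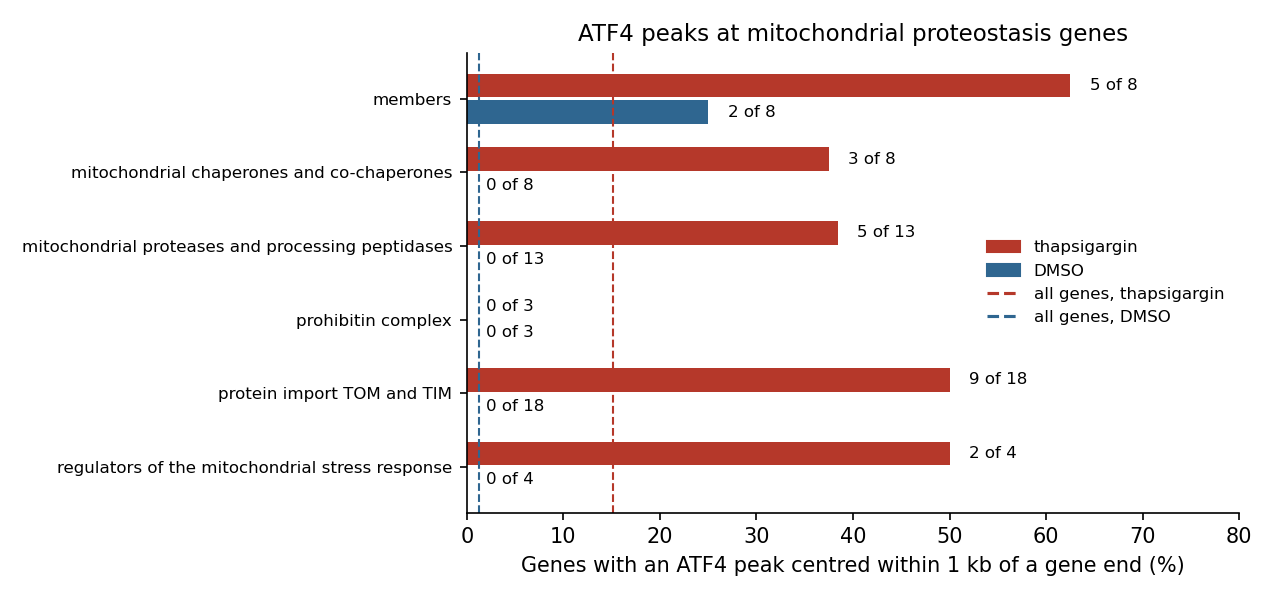
Share of genes (%) carrying an ATF4 peak at a gene end, with its centre at most 1 kb away, among the 8 members and 5 lists of related genes, thapsigargin above DMSO; dashed lines are the shares of all protein-coding genes, 15.1% and 1.29%. In thapsigargin every list but the prohibitin complex lies to the right of its line, and DMSO peaks are seen among the members alone.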

How the data were processed

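ATF4 CUT&Tag peaks were compared between thapsigargin and DMSO in C2C12 cells. Per the submitters' processing notes, Trim Galore 0.6.10, Bowtie2, MACS2 2.2.7.1 and the build mm10 were used. Their roles, the threshold, any control library and the way replicates were combined are not stated there. The deposited files give chromosome, start and end of each peak and no score or other measured value. Groups came from sample titles, and nothing says that replicates were separate cultures.

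Gene positions and promoter windows were those of RefSeq tables of GRCm38.p6, to which mm10 corresponds. All shares of promoter windows with a motif leave out chromosome 18, on which Hspa9 lies. A gene's ends, not its exons, were used. Peak centres within 1 kb of either end, inside the gene or within 50 kb of it were counted, overlap needed 1 bp, and printed coordinates count from 1. No test was run, since each condition is 1 list and the members and lists were chosen with earlier results of these data known. Beside the members, genes sharing or nearest to a member's peak were named, up to 6 per list by thapsigargin width, and the 3 most alike in widths. The head-to-head pairs, the genes of like length and Kif2c were added after values were seen. Alternatives were windows of 500 bp, 3 kb and 5 kb, reaches of 25 and 100 kb, peak edges, annotated starts, merged peaks (within 500 bp), other overlap rules and the wider 50% of each list, in place of a stricter score. Python 3.11.15, numpy 2.4.6, pandas 2.3.3 and matplotlib 3.10.9 were used. The peak counting was tested on simulated data.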

Additional observations from a re-analysis of the deposited data

How the results depend on the processing

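Of 57 alternative values, 42 stayed within 1.5 times the value reported. With the wider 50% of each list, which has fewer peaks by construction, 3 members had a thapsigargin end peak, against 7.56% of all genes. A DMSO end peak was left at 1 member, against 0.74% of all genes, and 1 had both. Of the 46 genes of the other lists 11 then had a thapsigargin end peak, against the same 7.56% of all genes. Within 50 kb the members had 7 thapsigargin and 2 DMSO peaks, both DMSO peaks overlapping a thapsigargin peak (2). The Hspa9 run had 4 peaks in thapsigargin and 1 in DMSO. A window of 500 bp left 4 members with a thapsigargin end peak, against 12.5% of all genes. It left 1 member with a DMSO end peak, against 0.962% of all genes. It also left 1 with both, since the Lonp1 DMSO peak is centred 562 bp from its end. Annotated starts alone also gave 1 and 1, since Hspa9 was not in the promoter table. No share of all genes was computed for peaks centred near annotated starts, or for peaks in both lists under any alternative. With windows of 3 kb and 5 kb, 1 gene of the other lists, Atf5, had a DMSO peak, in place of 0. Members with a thapsigargin end peak stayed at 5 there, while the share of all genes rose to 18.6% and 21.1%. Members with a DMSO end peak stayed at 2, against 1.73% and 2.03% of all genes. No paired analysis was possible because the deposited lists carry no replicate columns, so no replicate could be left out either. Peak number and width depend on read depth, which is unknown.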

Other observations

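Genes with at least 3 DMSO peaks within 50 kb, chosen after their values were seen, were 8 in all. Hspa9 and its neighbour Etf1 share theirs, with 7 thapsigargin and 3 DMSO peaks at Hspa9 and 8 thapsigargin and 3 DMSO peaks at Etf1. Slc7a5, the light chain of an amino acid transporter, had 6 thapsigargin and 3 DMSO peaks over a gene of 26.5 kb. The other 5, St3gal3, Cpq, Ltbp1, Smad3 and Tet3, are longer genes of 94.8 to 511 kb, and the count was highest at St3gal3, with 10 thapsigargin and 4 DMSO peaks.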
